A study of Mus musculus with 2 samples.

Results

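Mitotic 48h-EpiLCs were examined as the cells with the highest mitotic score in the library of mouse embryonic stem cells (ESCs) that had been converted for 48 h into epiblast-like cells (EpiLCs), and were set against the cells with the lowest score. The score of a cell was the number of unique molecular identifiers (UMIs, each counting 1 captured transcript) of Ccnb1, Cdc20, Plk1, Aurka, Cenpa, Ube2c, Hmmr and Cenpe per 10000 UMIs of that cell. Of 12427 barcodes, 9400 passed the limits of 1000 or more genes and no more than 10% of UMIs from mitochondrial genes. The highest 15% of them, 1410 cells, formed the high-score group, the lowest 30%, 2820 cells, formed the low-score group, and the other 5170 cells lay between. Both libraries together held 20454 such cells.

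The series held 2 droplet libraries without replicates, taken before conversion (serum/LIF ESCs, 0 h) and after it (48h-EpiLCs, 48 h). Each library was a mixture, in equal numbers, of wild-type cells of the ROSA mT/mG reporter line, which transcribe tdTomato, and of cells of a Cnot8 knockout (KO) line on the ICR background that descends from a picked colony, so that every value below comes from a mixture of 2 lines. The KO had been made by CRISPR/Cas9 cutting of exon 2 of Cnot8, a deadenylase of the Ccr4-Not complex that shortens the poly(A) tails of mRNAs. ESCs of the series were kept in serum with LIF, and EpiLCs were grown on Matrigel in N2B27 with activin A, bFGF and KSR. The paper's methods describe EpiLC conversion from ESCs kept in 2i/LIF. Both groups compared below came from 1 library, so cells are not replicates, no p-values are given, and the intervals beside folds are exact 95% binomial intervals that cover counting error only.

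Proliferating cells accumulate the transcripts of mitotic regulators during G2 and mitosis and lose the proteins at mitotic exit. Cyclin B1 (Ccnb1) with Cdk1 drives entry into mitosis, Plk1 and Aurka are the kinases that mature the centrosomes and build the spindle, Cenpa is the histone variant that marks centromeres, Cenpe is the kinetochore motor, Hmmr is a spindle protein, and Cdc20 and Ube2c are the activator and the ubiquitin-conjugating enzyme of the anaphase-promoting complex, which ends mitosis. Pluripotent mouse cells cycle fast with a short G1 phase. During conversion to EpiLCs they lose the naive program (Zfp42, Klf2, Esrrb) and gain the formative one (Fgf5, Otx2, Pou3f1), so a comparison within 48h-EpiLCs asks which of these programs differs with position in the cell cycle.

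The markers of the state went with the label of the library. Among kept cells, Fgf5 stood at 44.3 CPM (UMIs of the gene scaled to a fixed total of 1e+06 UMIs), Otx2 at 46.8 CPM and Pou3f1 at 398 CPM, against 1.52, 14.2 and 75.8 CPM in ESCs, while Zfp42 stood at 72.8 CPM against 488 CPM and Tbx3, named after its values were seen, at 1.76 CPM against 41.9 CPM. The 2 libraries shared 41 barcodes, 26 of them among kept cells. The score was a continuum rather than a separate class. Its median was 17.6 and its standard deviation 6.19, where counting error alone would give 3.62, and 669 cells lay within 1 score unit of the lower bound of the high-score group and 1114 within 1 unit of the upper bound of the low-score group. The last cell inside the high-score group had a score of 24.0445 and the next one outside 24.0398, and the corresponding pair at the low-score bound had 14.4522 and 14.4528. The 8 genes gave a median of 44 UMIs in a high-score and 15 in a low-score cell. For these reasons the groups are called high-score and low-score below.

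The high-score and low-score groups differed in transcripts that mark the 2 lines, which touches every value. The labels give no line for single cells. The Y-linked genes Ddx3y, Eif2s3y, Kdm5d and Uty were used together with Ipp and Nr1h5, which were chosen after the data were seen, and the 6 genes summed to 68.6 CPM in cells with a tdTomato UMI and to 211 CPM in all kept cells. These 6 line-marker genes summed to 283 CPM in high-score and 111 CPM in low-score cells. At least 4 of their UMIs were found in 57.0% of high-score and 16.8% of low-score cells, and none in 15.96% and 52.02%. tdTomato went the other way, with 1.39 CPM in high-score and 5.41 CPM in low-score cells (33 and 222 UMIs), a ratio of 0.257 (0.173 to 0.372). All comparisons were therefore also made within 2 classes, each ranked by score on its own: 2837 marker-free cells (0 UMIs of the 6 genes, 426 high-score and 851 low-score) and 3842 marker-positive cells (at least 4 UMIs, 576 high-score and 1153 low-score). tdTomato was detected in 9.52% of marker-free and 1.30% of marker-positive cells and had 6.90 CPM in high-score and 7.43 CPM in low-score marker-free cells, a ratio of 0.928 (0.631 to 1.35). The classes are not exact. Rpl29, a ribosomal protein gene, was 984 against 974 CPM in high-score and low-score marker-free cells but 255 against 385 CPM within marker-positive cells, and the 6 line-marker genes were 407 against 357 CPM there, so the groups of the marker-positive class still differed in line-linked transcripts. In marker-free cells Rpl29 and tdTomato were level, but Gm10260 had 46.2 against 25.1 CPM and BC004004 74.1 against 54.3 CPM. Both genes were higher in marker-positive cells, with 361 against 300 CPM and 328 against 272 CPM. Whether a remaining mixture of lines enters the values within marker-free cells was not tested.

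**Figure D1:**
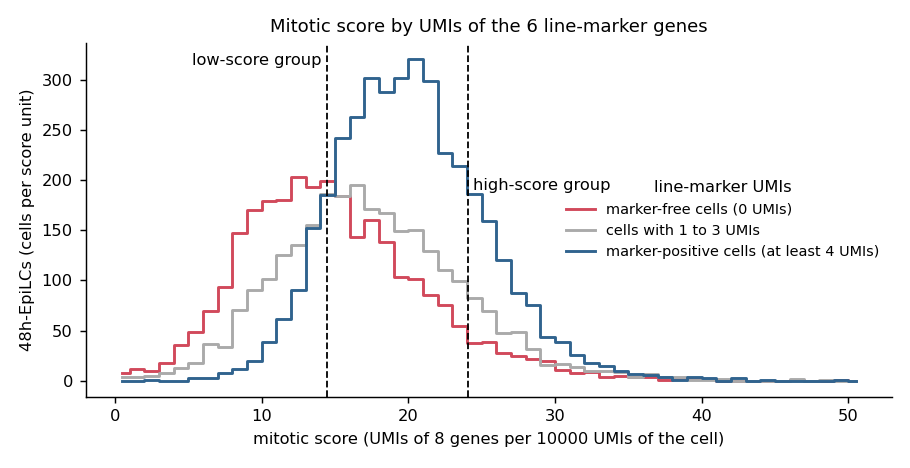
Number of 48h-EpiLCs per unit of mitotic score (x axis, UMIs of 8 genes per 10000 UMIs of the cell) for cells with 0, 1 to 3 and at least 4 UMIs of the 6 line-marker genes, with dashed lines at the bounds of the low-score (14.4522) and high-score (24.0445) groups. The 3 distributions overlap over most of the range, and the marker-positive cells (mean score 20.1) lie above the marker-free cells (mean score 14.9).

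The marker-positive class scored higher in all 8 genes, by summed UMIs. The 8 genes together were 1997 CPM in marker-positive and 1544 CPM in marker-free cells, a 1.29-fold difference (1.28 to 1.31). Hmmr differed most, with 147 against 101 CPM (1.46-fold, 1.41 to 1.51), and Cenpa least, with 225 against 217 CPM (1.04-fold, 1.01 to 1.07). Of marker-positive cells, 20.9% were in the high-score and 12.4% in the low-score group of the whole library, against 7.93% and 51.7% of marker-free cells. The classes also differed in depth, with medians of 17627 UMIs in marker-positive and 13801 UMIs in marker-free cells. Genotype, sex chromosomes and strain background cannot be told apart in these classes.

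Depth per cell differed between the groups of the whole library. The median was 16170 UMIs and 4198 genes in high-score cells and 13612 UMIs and 3748 genes in low-score cells, a ratio of medians of 1.19. Within marker-positive cells the medians were 17000 and 17123 UMIs, and within marker-free cells they were 15794 and 12459 UMIs. The median mitochondrial share was 3.07% in high-score and 3.18% in low-score cells.

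The genes of the score chose the groups, so their levels are a description. Ube2c had 874 CPM in high-score and 310 CPM in low-score cells, Ccnb1 433 and 179 CPM, Cdc20 445 and 204 CPM, and Cenpa 292 and 165 CPM. Aurka had 166 and 59.5 CPM, Plk1 174 and 68.6 CPM, Hmmr 209 and 72.4 CPM, and Cenpe 158 and 61.5 CPM. The folds thus ran from 1.77 for Cenpa to 2.89 for Hmmr, and no gene of the score was absent from low-score cells. Within marker-free cells the folds were wider, up to 3.98 for Ube2c (868 against 218 CPM), and within marker-positive cells narrower, up to 2.30 for Hmmr (232 against 101 CPM).

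Choosing cells on counts widens the contrast in those counts, so each set of 4 genes was also measured in groups ranked on the other 4. Groups chosen on Ccnb1, Cdc20, Plk1 and Aurka differed 1.55-fold (1.52 to 1.57) in the sum of the 4 genes left out of the ranking, with 1246 against 805 CPM, and groups chosen on Cenpa, Ube2c, Hmmr and Cenpe differed 1.58-fold (1.549 to 1.604) in the sum of the remaining ones, with 1013 against 643 CPM. These sums are of the whole library, and within marker-free cells they differed 1.80-fold and 1.69-fold and within marker-positive cells 1.28-fold and 1.29-fold. Of single genes in the whole library, Aurka moved most when left out (141 against 72.8 CPM, 1.93-fold) and Cenpa least (244 against 204 CPM). Ube2c, measured in groups that it did not choose, was 687 against 328 CPM in marker-free cells (2.09-fold) and 720 against 547 CPM in marker-positive cells (1.32-fold). Of the 1410 high-score cells, 504 (35.7%) were also among the highest 15% by the summed UMIs of the 143 mitosis genes that the score did not use, and so were 108 of the 2820 low-score cells (3.83%).

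Genes of mitosis often carry a cell cycle genes homology region (CHR), spelled TTTGAA or TTCGAA, near their start site, together with CCAAT boxes bound by NF-Y. The CHR letters were found on either strand in the promoter, taken as 250 bases before to 50 bases after the RefSeq start in build GRCm38.p6, of 6 of the 8 genes of the score and of 66 of the 119 other mitosis genes that have a promoter entry (55.5%). Of all 27025 genes with an entry, 21.7% held them. CCAAT was present in 8 of 8, in 63.9% and in 41.1%, in the same order. The matches in Plk1, Aurka, Cenpa and Hmmr began 30, 32, 16 and 8 bases after the start. Matches that begin before the start are shown for 2 genes of the score and for 3 of the other mitosis genes described below, each read along the gene's strand, with the CHR letters in capitals (TTCAAA is TTTGAA on the opposite strand).
Cdc20, chr4:118437344-118437373, minus strand: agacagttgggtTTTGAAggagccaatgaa
Ube2c, chr2:164769888-164769917, plus strand: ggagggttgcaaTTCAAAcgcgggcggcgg
Kpna2, chr11:106999543-106999572, minus strand: cctaacgtgtttTTCAAAcctaccaatgaa
Cdk1, chr10:69352966-69352995, minus strand: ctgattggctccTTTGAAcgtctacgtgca
Cdk1, chr10:69352910-69352939, minus strand: taccgcggcgagTTTGAAactgctggcact
Ckap2l, chr2:129297225-129297254, minus strand: ttattggcgaatTTCAAAgtcgcggaagcc
The matches begin 18, 29, 35, 71, 15 and 30 bases before the start in the order shown, Ckap2l holds another that begins 41 bases after it, and a CCAAT follows within the same stretch in Cdc20 and Kpna2, while its opposite-strand letters ATTGG precede the first match of Cdk1 and that of Ckap2l. A match is a description of letters and no binding was measured.

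Mitosis genes outside the score were higher in high-score cells as a group. Their median log2 ratio, on CPM + 1 as for every log2 ratio below, was 0.32, beside a median of 0.04 over all 9409 genes with a mean of at least 5 CPM in the groups. Of the 143 genes, 74 were higher by at least 1.2-fold and 30 by at least 1.5-fold, where 16.7% and 3.36% of all genes were, and 2 were lower by 1.2-fold, where 10.3% were. The median was 0.26 within marker-free and 0.18 within marker-positive cells, with 72 of 143 and 52 of 142 genes higher by 1.2-fold (background 9.81% and 7.56%) and 5 and none lower (background 10.9% and 6.98%). In both classes at once, 47 of 142 genes measured in each were higher by 1.2-fold and none was lower, where 2.25% and 2.07% of all 8984 genes were.

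Among kinases, cyclins and checkpoint genes, 15 of 25 were higher by 1.2-fold and none was lower (background 16.7% and 10.3%). Within marker-free and marker-positive cells 15 and 10 of 25 were higher (background 9.81% and 7.56%). Cdk1, the kinase partner of cyclin B1, had 382 CPM in high-score and 220 CPM in low-score cells, a 1.74-fold difference (1.69 to 1.79). It was 338 against 177 CPM in marker-free cells and 399 against 298 CPM in marker-positive cells. Aurkb, the kinase of the chromosomal passenger complex that corrects kinetochore attachments, had 82.2 against 49.3 CPM (1.67-fold, 1.48 to 1.88) in marker-free and 84.2 against 52.3 CPM (1.61-fold, 1.47 to 1.76) in marker-positive cells. Sgo2a, a protector of centromeric cohesion, had 69.6 against 40.9 CPM and 102.03 against 64.7 CPM. Ccnf, cyclin F, differed more in marker-free (1.83-fold, 1.64 to 2.03) than in marker-positive cells (1.18-fold, 1.10 to 1.26).

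Kinetochore and centromere genes were higher by 1.2-fold in 18 of 27 cases, and none was lower (background 16.7% and 10.3%). Within marker-free and marker-positive cells 17 and 12 of 27 were higher (background 9.81% and 7.56%). Cenpf, a large kinetochore protein of G2 and mitosis, had 341 CPM in high-score and 192 CPM in low-score cells. Its fold was 2.18 (2.04 to 2.33) in marker-free and 1.44 (1.379 to 1.497) in marker-positive cells. Incenp, the scaffold of the passenger complex, had 193 and 112 CPM, and Ndc80, which binds microtubules, 46.8 and 28.4 CPM. All 3 differed in the same direction in both classes.

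Among the lists of mitosis genes outside the score, spindle motors and microtubule proteins had the highest median, 0.57, with 27 of 34 genes higher by 1.2-fold and 15 by 1.5-fold (background 16.7% and 3.36%). Within marker-free and marker-positive cells 26 and 22 of 34 were higher by 1.2-fold (background 9.81% and 7.56%). Nusap1, which bundles spindle microtubules, had 144 CPM in high-score and 46.3 CPM in low-score marker-free cells, a 3.12-fold difference (2.80 to 3.49) that came within the range of the genes of the score. In marker-positive cells it had 140 against 92.3 CPM (1.51-fold, 1.42 to 1.62). Prc1, which bundles the central spindle, had 166 against 67.5 CPM and 211 against 133 CPM in the same order. Arl6ip1, counted in this list though no part in the spindle is claimed for it here, had 475 CPM in high-score and 251 CPM in low-score cells of the whole library. Ckap2l, a spindle pole protein, had 46.1 and 24.6 CPM. The list held no gene lower by 1.2-fold in the whole library or in either class.

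Cytokinesis genes were higher by 1.2-fold in 7 of 16 cases and lower in none (background 16.7% and 10.3%). Within marker-free cells 8 of 16 were higher and 1 lower (background 9.81% and 10.9%). Within marker-positive cells 5 of 16 were higher and none lower (background 7.56% and 6.98%). Kif23 and Ect2, parts of the machinery that places the cleavage furrow, had 76.6 against 44.7 CPM and 88.4 against 52.2 CPM in the whole library. The fold of Ect2 was 1.69 there, 1.64 in marker-free cells and 1.24 in marker-positive cells. Cep55, of the same list, was 1.62-fold higher in the whole library (1.46 to 1.80). Its fold was 1.21 in marker-free (0.944 to 1.56) and 1.06 in marker-positive cells (0.926 to 1.22), and both of these intervals include 1. Genes of chromosome condensation and the nuclear envelope had a median of 0.03, with 7 of 25 higher by 1.2-fold and none lower (background 16.7% and 10.3%). Within marker-free cells 7 of 25 were higher and 1 lower (background 9.81% and 10.9%). Within marker-positive cells 4 of 25 were higher and none lower (background 7.56% and 6.98%). In the whole library Top2a, the topoisomerase that untangles sister chromatids, had 755 against 464 CPM (1.63-fold, 1.59 to 1.66), Kpna2, an importin, 48.1 against 23.9 CPM, Mki67 116 against 80.7 CPM and Smc4, a condensin subunit, 155 against 113 CPM. With low-score cells weighted to the line-marker make-up of high-score cells, their low-score values were 527, 27.5, 82.7 and 109.5 CPM in the same order, and that of Kif23 was 51.4 CPM. Genes of the anaphase-promoting complex and its inhibitors had a median of 0.02, with 4 of 20 higher and 2 lower by 1.2-fold, close to the 16.7% and 10.3% of all genes, 3 higher and 3 lower of 20 within marker-free cells (background 9.81% and 10.9%) and 3 higher and none lower of 19 within marker-positive cells (background 7.56% and 6.98%). Among the higher genes of the whole library were Fzr1, the activator of the complex in late mitosis and G1, with 78.3 against 40.0 CPM (1.96-fold, 1.83 to 2.09), and the checkpoint gene Bub3, with 223 against 158 CPM (1.41-fold). In marker-free and marker-positive cells the folds were 2.13 and 1.44 for Fzr1 and 1.63 and 1.21 for Bub3.

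**Figure D2:**
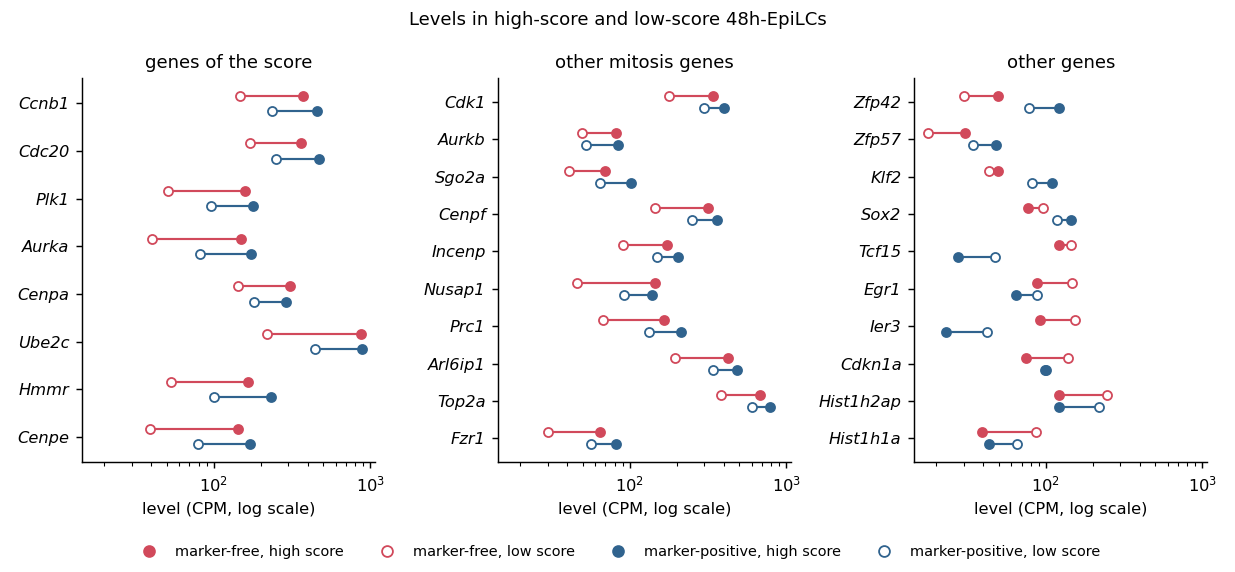
Levels in CPM on a log axis of genes of the score, other mitosis genes and other genes, in high-score (filled) and low-score (open) cells of the marker-free and marker-positive classes of 48h-EpiLCs, 1 value per group of 426, 851, 576 and 1153 cells. All 10 other mitosis genes shown are to the right in high-score cells of both classes, while Sox2 moves in opposite directions and Cdkn1a moves in marker-free cells (138 to 74.3 CPM) and hardly in marker-positive cells (99.03 to 100.5 CPM).

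S-phase genes as a list differed little between the groups of the whole library. Over 72 measured genes the median log2 ratio was -0.03, with 4 higher and 6 lower by 1.2-fold (background 16.7% and 10.3%). The classes differed in this list, which by summed CPM was 1.14-fold higher in marker-positive than in marker-free cells. Within marker-free cells the median was -0.16 and 28 of 72 were lower by 1.2-fold (background 10.9%), and within marker-positive cells it was -0.06 with 3 lower (background 6.98%). Mcm4, a subunit of the replicative helicase, had 149 against 197 CPM in marker-free cells (0.759-fold, 0.703 to 0.819) and 137 against 152 CPM in marker-positive cells (0.903-fold, 0.849 to 0.961). Wdhd1, a replication fork protein, had 20.1 against 33.0 CPM and 19.7 against 25.1 CPM. Dbf4, the regulatory subunit of the Cdc7 kinase, was higher in both classes, with 180 against 126 CPM and 174 against 141 CPM.

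Replication-dependent histones, whose transcripts are made in S phase and lack a poly(A) tail when mature, were lower in high-score cells. Of 24 measured genes, 21 were lower by 1.2-fold and 15 by 1.5-fold (background 10.3% and 1.77%), none was higher, and the median was -0.63. They summed to 742 CPM in high-score and 1258 CPM in low-score cells, a ratio of 0.590 (0.580 to 0.600). The sum was 694 against 1334 CPM in marker-free and 735 against 1067 CPM in marker-positive cells. Hist1h2ap had 122 against 246 CPM in marker-free cells (0.496-fold, 0.458 to 0.537) and 122 against 218 CPM in marker-positive cells (0.561-fold, 0.527 to 0.597), so high-score cells of both classes stood at 122 CPM. Hist1h2ae had 57.2 against 124 CPM and 33.3 against 54.6 CPM, Hist1h1a 39.0 against 86.3 CPM and 43.5 against 65.3 CPM, and Hist1h3c 22.8 against 35.4 CPM and 12.6 against 17.0 CPM. Near-identical histone copies can share reads, and the poly(A) capture of the kit reads only the tailed portion of these transcripts.

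Of the G1 cyclins, CDKs and inhibitors, 7 of 20 were lower and 2 higher by 1.2-fold (background 10.3% and 16.7%). Within marker-free cells 8 of 20 were lower and 2 higher (background 10.9% and 9.81%), and within marker-positive cells 6 of 20 were lower and 3 higher (background 6.98% and 7.56%). Cdkn1a, the p53-induced inhibitor p21, had 74.3 CPM in high-score and 138 CPM in low-score marker-free cells, a ratio of 0.537 (0.484 to 0.595). In marker-positive cells it had 100.5 and 99.03 CPM, a ratio of 1.01 (0.942 to 1.09). The intervals of the 2 classes do not overlap, but whether the lines differ was not tested. Ccnd1 had 107 against 116 CPM and 101 against 124 CPM, Skp2, part of the ligase that degrades p27, 33.5 against 39.1 CPM and 26.8 against 34.1 CPM, and Cdkn1c, the inhibitor p57, 41.6 against 53.5 CPM and 32.4 against 39.9 CPM.

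Of 16 naive pluripotency genes, 8 were higher and 1 lower by 1.2-fold in high-score cells (background 16.7% and 10.3%), and the difference was smaller within the classes. By 1.5-fold 8 were higher and none lower (background 3.36% and 1.77%). The median was 0.42, but it was 0.15 within marker-free and 0.15 within marker-positive cells. By 1.2-fold 4 of 14 and 6 of 15 were higher there (background 9.81% and 7.56%) and none lower (background 10.9% and 6.98%). By 1.5-fold 2 and 1 were higher in the classes (background 1.56% and 0.669%) and none lower (background 1.23% and 0.488%). Zfp42, known as Rex1 and the classic reporter gene of the naive state, kept its difference within the classes. It had 114 CPM in high-score and 44.5 CPM in low-score cells of the whole library (2.56-fold, 2.41 to 2.72). In marker-free cells it had 49.8 and 30.01 CPM (1.66-fold, 1.42 to 1.94), and in marker-positive cells 122 and 77.7 CPM (1.57-fold, 1.46 to 1.69). Zfp57, a zinc finger protein that guards imprints, had 30.6 against 17.6 CPM and 48.1 against 34.4 CPM, and Klf5 29.6 against 22.2 CPM and 48.7 against 33.2 CPM. For these genes the low-score marker-positive cells stood above the high-score marker-free cells.

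Klf2, a naive transcription factor, had 105 CPM in high-score and 52.9 CPM in low-score cells, but 49.5 against 43.3 CPM in marker-free cells (1.14-fold, 0.990 to 1.32), an interval that includes 1. In marker-positive cells it had 110 against 81.9 CPM (1.34-fold, 1.25 to 1.45). Esrrb had 10.4 against 5.63 CPM in the whole library, and both class intervals included 1. Nanog was 21.6 against 24.7 CPM in the whole library and 30.9 against 27.1 CPM and 17.5 against 16.2 CPM within the classes, with intervals that again included 1.

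Core pluripotency genes had medians near 0, with 0.05 over 11 genes (0.02 in marker-free and 0.05 in marker-positive cells) and none past 1.5-fold. By 1.2-fold 1 was higher and 2 were lower in the whole library (background 16.7% and 10.3%). Within marker-free cells 1 was higher and 1 lower (background 9.81% and 10.9%), as within marker-positive cells (background 7.56% and 6.98%). Pou5f1, which encodes Oct4, had 106 against 110 CPM in marker-free and 79.8 against 88.3 CPM in marker-positive cells. Sox2 went in opposite directions. It had 77.3 CPM in high-score and 96.6 CPM in low-score marker-free cells (0.800-fold, 0.718 to 0.890), and 145 and 117 CPM in marker-positive cells (1.23-fold, 1.16 to 1.32). Lin28a and Tdgf1 had log2 ratios of 0.09 and 0.00 in marker-free and of -0.35 and -0.06 in marker-positive cells.

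Formative genes were lower in the whole library, with a median of -0.28, 11 of 21 lower and 3 higher by 1.2-fold (background 10.3% and 16.7%). The median was -0.08 within marker-free cells, with 5 of 21 lower and 2 higher (background 10.9% and 9.81%), and -0.16 within marker-positive cells, with 6 of 21 lower and 2 higher (background 6.98% and 7.56%). Of 4 hallmark genes of the formative state (Fgf5, Pou3f1, Dnmt3b and Otx2), Otx2 in marker-free cells alone was past 1.2-fold within the classes. Fgf5 had 57.6 against 60.1 CPM in marker-free and 39.4 against 37.2 CPM in marker-positive cells, Pou3f1 (Oct6) 419 against 420 CPM and 355 against 397 CPM, and Dnmt3b, a de novo DNA methyltransferase, 515 against 546 CPM and 444 against 511 CPM. Otx2 had 42.6 against 52.7 CPM in marker-free cells (0.809-fold, 0.699 to 0.934) and 52.8 against 48.2 CPM in marker-positive cells (1.09-fold, 0.986 to 1.21). Dnmt3l, the cofactor of the methyltransferases, was higher in both, with 181 against 124 CPM (1.45-fold, 1.34 to 1.57) and 395 against 329 CPM (1.202-fold, 1.157 to 1.249). Tcf15, a bHLH factor that primes pluripotent cells for differentiation, was lower in both, with 122 against 145 CPM (0.841-fold, 0.771 to 0.916) and 27.6 against 47.7 CPM (0.577-fold, 0.505 to 0.658). Sox11 had 73.5 against 68.1 CPM in marker-free and 23.5 against 36.6 CPM in marker-positive cells, and Rbpj 143 against 129 CPM and 232 against 178 CPM.

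**Figure D3:**
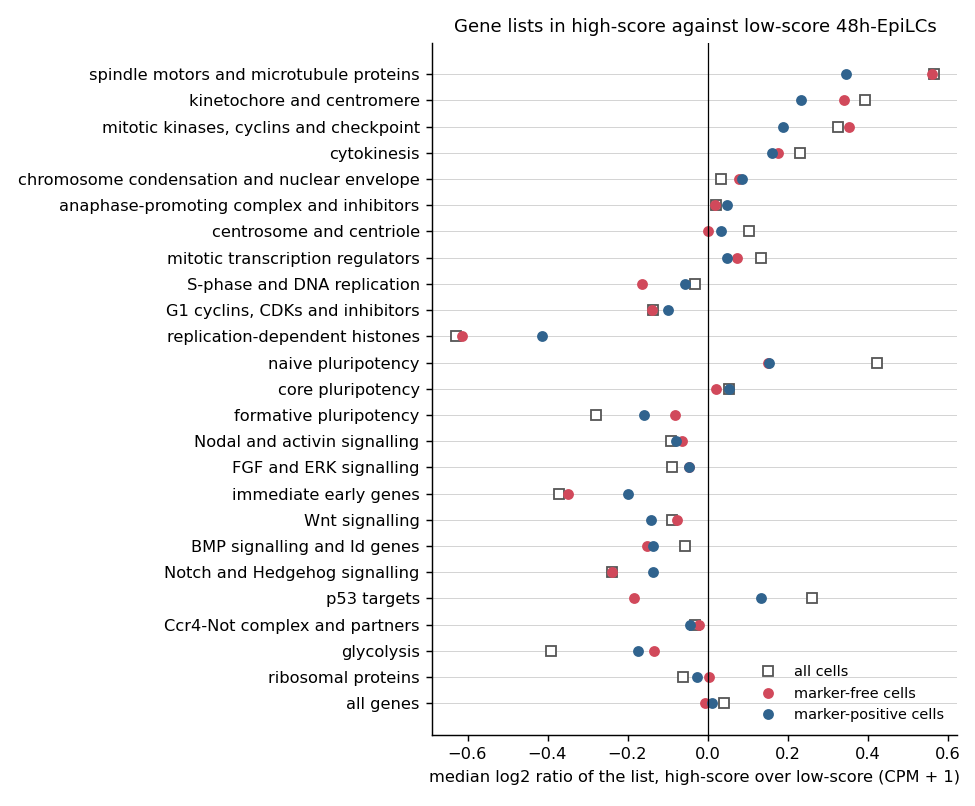
Median log2 ratio (CPM + 1) of high-score over low-score 48h-EpiLCs for 24 gene lists and for all genes, in all cells (squares), marker-free cells and marker-positive cells (dots), over the list genes with a mean of at least 5 CPM. The lists of spindle, kinetochore and kinase genes lie above 0 and the replication-dependent histones and immediate early genes below 0 in all 3 sets, while the naive list falls from 0.42 to 0.15 within each class and the p53 targets lie on opposite sides of 0.

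The backgrounds for the signalling genes counted below are those of all genes, 10.3% lower and 16.7% higher by 1.2-fold in the whole library, 10.9% and 9.81% in marker-free cells and 6.98% and 7.56% in marker-positive cells. Nodal and activin genes, whose pathway EpiLC medium stimulates through activin A, had a median of -0.09, with 3 of 14 lower and none higher by 1.2-fold. Of them, 3 of 16 were lower and 3 higher in marker-free cells and 2 of 15 lower and none higher in marker-positive cells. Smad7, the feedback inhibitor of the pathway, was lower in both classes, with 90.3 against 129 CPM in marker-free (0.701-fold, 0.636 to 0.772) and 74.6 against 93.99 CPM in marker-positive cells (0.793-fold, 0.730 to 0.862). The ligand Gdf3 had 137 against 110 CPM and 131 against 126 CPM and the repressor Skil 104 against 118 CPM and 92.1 against 99.4 CPM. Wnt genes had a median of -0.09 with 8 of 19 lower and 1 higher, and within the classes 2 of 20 were lower and 1 higher in marker-free cells and 4 of 19 lower and none higher in marker-positive cells. BMP and Id genes had a median of -0.06 with 4 of 10 lower and 2 higher, and then 3 of 9 lower and 2 higher, and 1 of 10 lower and 2 higher, in the same order of classes. Notch and Hedgehog genes had a median of -0.24 with 6 of 12 lower, and then 5 of 12 and 2 of 11, and none higher in any of the 3 sets. LIF and STAT3 genes, which sustain naive cells, had a median of -0.03 with 1 of 9 lower and 2 higher, and then 2 of 7 lower and 3 higher, and 2 of 9 lower and 2 higher. The gene of the LIF list that was lower in the whole library, the kinase Pim2, had 452 against 522 CPM in marker-free and 124 against 212 CPM in marker-positive cells.

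FGF and ERK genes had a median of -0.09, with 8 of 26 lower and 1 higher by 1.2-fold. Within marker-free cells 4 of 26 were lower and none higher, and within marker-positive cells 3 of 25 were lower and 1 higher. Dusp6, the ERK phosphatase, had 49.4 CPM in high-score and 80.3 CPM in low-score marker-free cells (0.614-fold, 0.539 to 0.698). In marker-positive cells it had 53.9 against 61.4 CPM (0.879-fold, 0.795 to 0.970). Spry4 had 21.2 against 27.4 CPM and 13.3 against 17.4 CPM, and Spry2 25.7 against 31.9 CPM and 21.8 against 23.8 CPM. Dusp4, a nuclear phosphatase, differed in the whole library (67.8 against 49.5 CPM) but not beyond counting error in either class.

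Immediate early genes, which growth factors and stress switch on within minutes, were lower in high-score cells. Of 18 measured genes, 10 were lower by 1.2-fold and 7 by 1.5-fold (background 10.3% and 1.77%), 1 was higher by 1.2-fold (background 16.7%), and the median was -0.37. Within marker-free cells 13 of 19 were lower and 1 higher (background 10.9% and 9.81%, median -0.35), and within marker-positive cells 7 of 17 were lower and 2 higher (background 6.98% and 7.56%, median -0.20). Egr1 had 87.6 CPM in high-score and 148 CPM in low-score marker-free cells (0.593-fold, 0.538 to 0.653), and 64.8 against 87.8 CPM in marker-positive cells (0.738-fold, 0.676 to 0.806). Fos had 23.7 against 40.9 CPM and 12.0 against 17.5 CPM, and Fosb 29.3 against 46.5 CPM and 13.2 against 16.9 CPM. Ier3, an ERK-responsive gene of the response to stress, had 92.1 against 154 CPM (0.597-fold, 0.544 to 0.656) and 23.2 against 42.1 CPM (0.550-fold, 0.475 to 0.634).

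The medians of p53 targets lay on opposite sides of 0 in the 2 classes. The median was 0.26 in the whole library, with 9 of 18 higher and 1 lower by 1.2-fold (background 16.7% and 10.3%). It was -0.18 within marker-free cells, with 8 of 17 lower and 1 higher (background 10.9% and 9.81%), and 0.13 within marker-positive cells, with none of 18 lower and 2 higher (background 6.98% and 7.56%). Mdm2, the ubiquitin ligase that limits p53, had 92.4 against 132 CPM in marker-free (0.703-fold, 0.638 to 0.773) and 194 against 154 CPM in marker-positive cells (1.264-fold, 1.196 to 1.336). Ccng1 had 141 against 169 CPM (0.832-fold, 0.768 to 0.901) and 235 against 199 CPM (1.19-fold, 1.13 to 1.24).

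**Figure D4:**
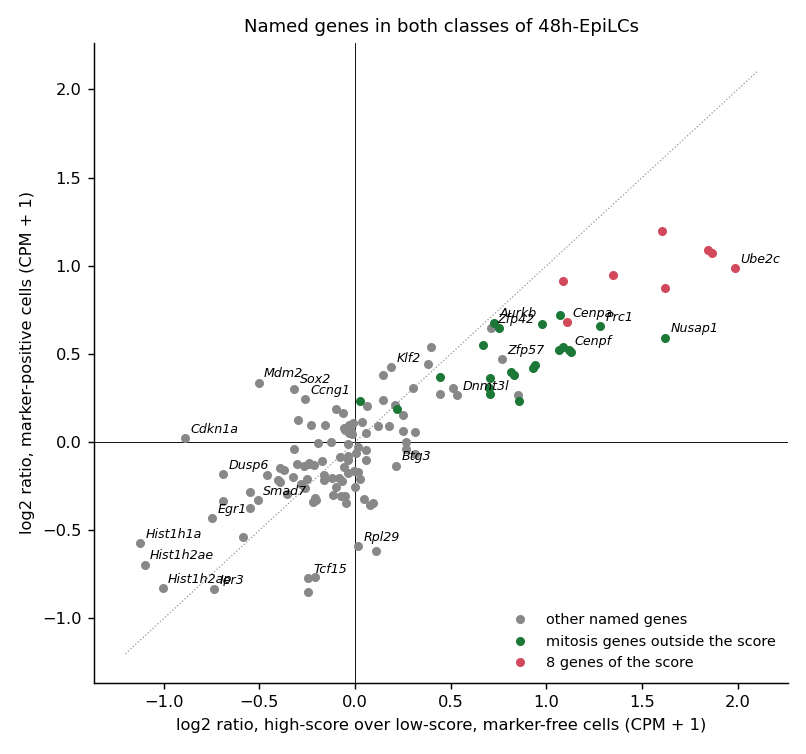
Log2 ratio (CPM + 1) of high-score over low-score cells in the marker-free class (x axis) and in the marker-positive class (y axis), 1 point for each gene chosen by the naming rule with a mean of at least 20 CPM in both classes, and a dotted line where the ratios are equal. Genes of the score and other mitosis genes lie above 0 on both axes and mostly below the dotted line, histones and immediate early genes lie below 0 on both axes, and Mdm2, Sox2 and Ccng1 lie below 0 in marker-free and above 0 in marker-positive cells.

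The Ccr4-Not list had a median of -0.03 over 21 genes, none higher by 1.2-fold and 1 lower (background 16.7% and 10.3%). Within marker-free cells none of 21 was higher and 3 were lower (background 9.81% and 10.9%). Within marker-positive cells 1 of 21 was higher and none lower (background 7.56% and 6.98%). The gene lower in the whole library, Btg3, an antiproliferative partner of the deadenylases, had 147 against 127 CPM in marker-free cells (1.16-fold, 1.07 to 1.26) and 79.1 against 86.9 CPM in marker-positive cells (0.910-fold, 0.838 to 0.987). Cnot8 itself had 58.7 CPM in high-score and 53.4 CPM in low-score cells, 48.8 against 49.5 CPM in marker-free and 61.7 against 59.2 CPM in marker-positive cells. Counts at the 3' end do not show whether a transcript carries the exon 2 lesion, so Cnot8 is no check of the KO label. Pabpc4, a poly(A)-binding protein, had 133 against 157 CPM in the whole library, 157 against 164 CPM in marker-free cells (0.954-fold, 0.882 to 1.03) and 127 against 148 CPM in marker-positive cells (0.857-fold, 0.804 to 0.914).

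Glycolysis genes were lower by 1.2-fold in 16 of 22 cases and higher in 2 (background 10.3% and 16.7%), with a median of -0.39. The median was -0.13 in marker-free cells, where 2 of 22 were lower and none higher (background 10.9% and 9.81%), and -0.17 in marker-positive cells, where 6 of 22 were lower and 1 higher (background 6.98% and 7.56%). Pgk1, phosphoglycerate kinase, had 1146 against 1326 CPM (0.864-fold, 0.841 to 0.889) and 536 against 667 CPM (0.803-fold, 0.779 to 0.828), and the glucose transporter Slc2a3 196 against 233 CPM and 81.1 against 93.8 CPM. Ribosomal protein genes had medians of -0.06 in the whole library, 0.00 in marker-free and -0.03 in marker-positive cells. Centrosome genes (0.10 in the whole library, 0.00 and 0.03 within the classes) and the regulators that transcribe mitotic genes (0.13, 0.07 and 0.05) lay closer to the median of all genes. Stress response (0.04), cholesterol and fatty acid synthesis (-0.05), nuclear oxidative phosphorylation (-0.06) and mitochondrially encoded genes (-0.04) did too, while adhesion genes had a median of -0.18 and nuclear long noncoding RNAs of 0.12. Plk4, the kinase of centriole duplication, had 441 against 436 CPM and 734 against 826 CPM.

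Markers of other cell types were found in few cells. Feeder fibroblast markers summed to 12.3 CPM in high-score and 13.6 CPM in low-score cells, with 1 of 10 past the 5 CPM level. At least 20 UMIs of the contractile list were found in 1.99% of high-score and 0.390% of low-score cells, and at least 5 UMIs of the 2-cell-like list in 1.13% and 0.567%. Without the cells that carried either, 321 genes were higher and 168 lower by 1.5-fold, beside 316 and 167 with them, and the naive median was 0.46. Primitive endoderm markers summed to 150 and 131 CPM and mesendoderm markers to 16.8 and 19.4 CPM.

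Outside the lists, the 10 highest ratios of the whole library included the line-marker genes Ipp and Nr1h5. Gm10260 had 290 against 106 CPM in the whole library, 46.2 against 25.1 CPM within marker-free cells (1.84-fold, 1.56 to 2.18) and 361 against 300.4 CPM within marker-positive cells (1.202-fold, 1.155 to 1.251). Calcoco2, an autophagy receptor gene, had 22.7 against 13.1 CPM (1.73-fold, 1.37 to 2.20) in marker-free and 35.0 against 18.4 CPM (1.91-fold, 1.65 to 2.20) in marker-positive cells, and 10 and 21 UMIs in the 68 and 136 high-score and low-score cells with tdTomato (0.720-fold, 0.303 to 1.597). Among the 10 lowest ratios, Tfrc, the transferrin receptor, had 104 against 157 CPM (0.664-fold, 0.607 to 0.726) and 59.8 against 87.3 CPM (0.684-fold, 0.624 to 0.749). Ddit4, an inhibitor of mTORC1, had 95.9 against 141 CPM and 37.1 against 48.3 CPM, Egln1, an oxygen-sensing prolyl hydroxylase, 49.5 against 73.0 CPM and 29.1 against 35.6 CPM, and the peptide hormone gene Adm 29.1 against 47.0 CPM and 7.40 against 13.1 CPM. Not all of the 10 were lower in both classes. In marker-free cells Dera had 39.6 against 35.8 CPM (1.10-fold, 0.941 to 1.30) and Car2 112 against 106 CPM (1.06-fold, 0.962 to 1.16), intervals that include 1. In marker-positive cells they had 5.16 against 10.6 CPM and 33.2 against 42.7 CPM. Taken at 1.5-fold in both classes with a mean of at least 20 CPM in each, 9 genes outside the score were higher, of which 8 belong to the mitosis lists (Aspm, Aurkb, Ckap2l, Kif20b, Kpna2, Nusap1, Prc1 and Sgo2a) and the other one is Zfp42, and 4 were lower (Hist1h1e, Hist1h2ae, Hist1h2ap and Ier3). This set was chosen after its values were seen.

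Along the score the changes were gradual. In the 10 equal bins of marker-positive cells, Cdk1 went from 286 to 409 CPM, Nusap1 from 87.5 to 142 CPM and Zfp42 from 73.1 to 133 CPM, while the histone sum went from 1119 to 694 CPM and the sum of immediate early genes from 799 to 656 CPM. In marker-free cells Cdk1 went from 165 to 349 CPM, Nusap1 from 38.4 to 159 CPM, the histone sum from 1226 through 1399 in the third bin to 668 CPM, and immediate early genes from 1171 to 888 CPM. Zfp42 stayed between 25.9 and 35.8 CPM over the lowest 7 bins of marker-free cells and reached 57.3 CPM in the highest. Summed core and formative genes moved little, from 2530 to 2660 CPM and from 2383 to 2290 CPM in marker-free cells.

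Within the high-score group, values in 3 bins of 470 cells each are given from the lowest bin to the highest. Among genes and lists outside the score, Cenpf had 314, 327 and 387 CPM, Cdk1 362, 382 and 404 CPM, Zfp42 108, 112 and 123 CPM, and the histone sum was 797, 746 and 674 CPM. No such order was seen for Ccna2, cyclin A2, named after its values were seen, with 164, 162 and 173 CPM, nor for the sums of immediate early genes, with 743, 716 and 723 CPM, and of glycolysis genes, with 9918, 10165 and 10026 CPM. The share of marker-positive cells fell along the bins, at 61.5%, 56.6% and 52.98%, and median depth was 16838, 16043 and 15653 UMIs.

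**Figure D5:**
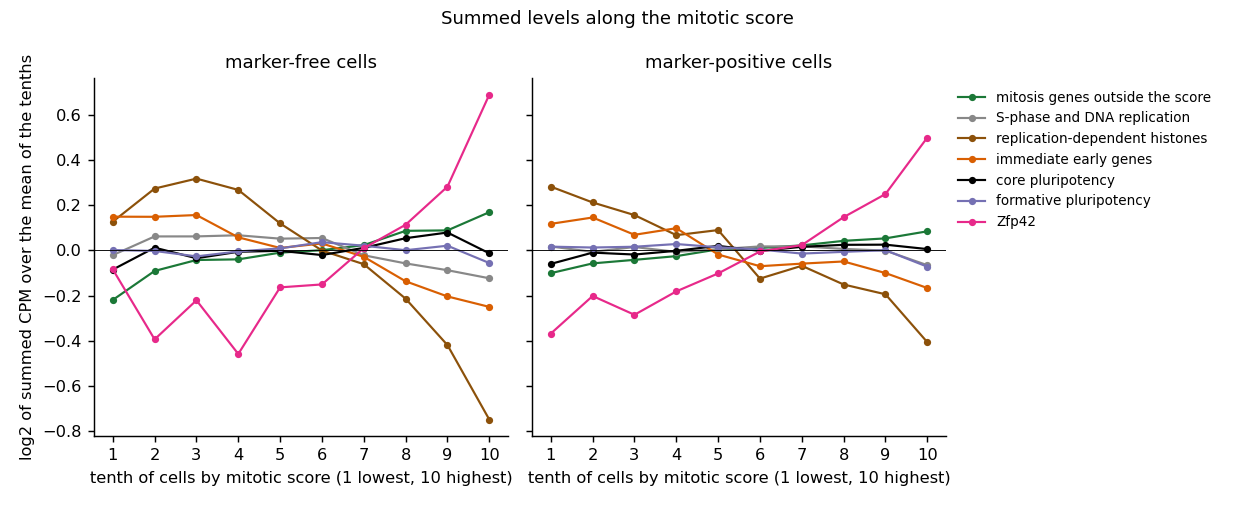
Log2 of the summed CPM of gene lists, and of Zfp42, in 10 equal bins of marker-free (left) and marker-positive (right) 48h-EpiLCs ranked by mitotic score, relative to the mean of the bins. Mitosis genes outside the score and Zfp42 end above 0 and histones and immediate early genes below 0 in both classes, while core and formative sums stay within 0.1 of 0.

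The same rule in serum/LIF ESCs gave 1658 high-score and 3316 low-score cells out of 11054. The genes of the score had a median log2 ratio of 1.32 there, beside 1.34 in 48h-EpiLCs. Mitosis genes outside the score had a median of 0.27, replication-dependent histones of -0.34 and immediate early genes of -0.51. Marker-positive cells made up 30.2% of high-score and 12.6% of low-score ESCs. Within marker-free ESCs the 3 medians were 0.30, -0.68 and -0.52, and within marker-positive ESCs 0.16, -0.14 and -0.25. Naive genes had a median of 0.10, beside 0.42 in 48h-EpiLCs, and within the classes of ESCs it was 0.07 in marker-free and 0.04 in marker-positive cells. Zfp42, Zfp57 and Klf5 had log2 ratios of 0.34, 0.32 and -0.09 in marker-free ESCs and of 0.14, 0.00 and 0.11 in marker-positive ESCs. Cdkn1a had log2 ratios of -1.11 in marker-free and -0.76 in marker-positive ESCs. Feeder fibroblast markers summed to 17.9 CPM in high-score and 113 CPM in low-score ESCs, and their part in the ESC values was not tested. The difference between the libraries was not tested, since each was 1 library.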

How the data were processed

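Single-cell 3' RNA-seq (10x, v2 chemistry) had been made of 1 library each of serum/LIF ESCs and 48h-EpiLCs. The deposited values were UMI counts per gene and barcode, which the authors obtained with Cell Ranger (version 3.0.2) and a mm10 reference to which the tdTomato coding sequence had been added, and the submitters' processing notes also name Seurat (version 4). Totals were 163771168 UMIs over 12427 barcodes for 48h-EpiLCs and 144584246 UMIs over 13184 barcodes for ESCs. Members and gene lists were chosen with earlier results of these data known.

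Barcodes under 1000 genes or above 10% mitochondrial UMIs were left out, and doublets were not removed. UMIs were summed per group and scaled to CPM, and log2 ratios used a pseudocount of 1 CPM over genes with a mean of at least 5 CPM in the groups. With no replicates no test was run, and genes were counted past 1.2-fold and 1.5-fold. Fold intervals were exact binomial (95%), conditional on the summed UMIs, and cover counting error only. The labels name tdTomato for telling the lines apart, and it was detected in 4.81% of kept 48h-EpiLCs, so classes were set from 6 line-marker genes. The naming rule picked the 8 genes of the score, 12 pluripotency, Cnot8 and reporter genes, up to 4 per list with the largest absolute log2 ratio at a mean of at least 20 CPM, and the 10 highest and 10 lowest outside the lists. Values are given for only part of the genes so picked, and some of those left out changed sign within the classes. Other genes are said to have been chosen after their values were seen. Alternatives covered group shares, thinning, doublet scores, deep cells, the score genes, cell filters, weighting, TMM scaling, the line classes, the reference group, pseudocount and minimum level. Scripts were tested on simulated data. Python 3.11.15, NumPy 2.4.6, SciPy 1.17.1, pandas 2.3.3 and scikit-learn 1.9.0 were used. Promoter sequences came from RefSeq (GRCm38.p6).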

Additional observations from a re-analysis of the deposited data

Results flagged for a closer look

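In 4 genes named above, the ratio of high-score to low-score cells lay on opposite sides of 1 in the 2 classes, with neither interval reaching 1. Sox2 had folds of 0.800 in marker-free and 1.23 in marker-positive cells, Mdm2 of 0.703 and 1.26, Ccng1 of 0.832 and 1.19, and Btg3 of 1.16 and 0.910. The difference between the classes was not tested, since each class holds cells of 1 library.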

How the results depend on the processing

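No paired analysis was possible because each stage was 1 library. In the whole library 316 genes were higher and 167 lower by 1.5-fold. These counts were 63 and 46 in marker-positive cells, 77 and 57 in cells with at least 2 Y-linked UMIs, 87 and 46 with the line share equalised, 142 and 57 at a minimum of 20 CPM, 568 and 335 with no minimum, 201 and 83 with a pseudocount of 5 CPM, 190 and 95 with the score of Cenpa, Ube2c, Hmmr and Cenpe, and 670 and 641 in the few cells with tdTomato. In marker-free cells 145 were higher, and in cells with 0 Y-linked UMIs 75 were lower. The median of mitosis genes outside the score was 0.18 in marker-positive cells and in cells with at least 2 Y-linked UMIs, and 0.41 with a score that included them. The S-phase median (-0.03) was 0.21 without the low-score cells richest in S-phase UMIs, a removal that by itself raises the ratio, 0.089 with the wider score and 0.056 with the score of Ccnb1, Cdc20, Plk1 and Aurka. It was -0.050 with the highest 10% against the lowest 40% and with the score of the other 4 genes, -0.081 with TMM scaling, -0.078 in cells with 0 Y-linked UMIs, -0.075 with the line share equalised, -0.057 in marker-positive cells, -0.061 with at least 2 Y-linked UMIs, -0.16 in marker-free cells and -0.19 in cells with tdTomato. The ratio of median depth (1.19) was 0.993 in marker-positive cells, 0.995 with at least 2 Y-linked UMIs, 1.27 in marker-free cells, 1.34 in cells with tdTomato, 1.13 and 1.24 with the highest 10% and 20%, and 1.12 with the score of Ccnb1, Cdc20, Plk1 and Aurka. Signs were checked over these settings for the gene lists and for only part of the genes picked by the naming rule. Of the checked log2 ratios past 1.2-fold in the whole library, those that changed sign were, in marker-free cells, Sox2 (-0.32), Mdm2 (-0.50), Ccng1 (-0.26), Btg3 (0.22), Sox11 (0.11), Lin28a (0.094), Rpl29 (0.015) and the contractile median (-0.081). In cells with tdTomato they were Sox2 (-0.49), Mdm2 (-0.30), Ccng1 (-0.18), Btg3 (0.23), Sox11 (0.011), Calcoco2 (-0.43), Ddit4 (0.032) and Spry4 (0.18), and in cells with 0 Y-linked UMIs Mdm2 (-0.047). In marker-positive cells and in cells with at least 2 Y-linked UMIs they were Fgf5 (0.081 and 0.0073), Cdkn1a (0.021 and 0.0071) and Dusp4 (-0.047 and -0.0084). Genes past 1.2-fold that this check left out changed sign too. Among them were Dera (0.14), Car2 (0.079), Gja1 (0.028), Dnajb1 (-0.23), Ei24 (-0.10) and Cox7b (-0.013) in marker-free cells. Asns (0.17) did so in marker-positive cells, and Dera (0.47), Bnip3 (0.12) and Dnajb1 (-0.12) in cells with tdTomato. Some ratios under 1.2-fold in the whole library changed sign too, among them Nanog (0.18 in marker-free and 0.11 in marker-positive cells), Cnot8 (-0.021) and the p53 median (-0.18) in marker-free cells and Otx2 (0.13) and Plk4 (-0.17) in marker-positive cells. The cause was not tested. The line classes, tdTomato cells, equalised share, wider score and removal of marker cells of other types were chosen after seeing the data.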
